A study of Mus musculus with 8 samples.

Results

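The genes described are 29 cholesterol genes, taken by symbol from a fixed list of synthesis, regulation, uptake and efflux genes, out of 29713 genes measured. All 29 were found in the tables: 7 enzymes of the mevalonate arm, 11 of the sterol arm, 5 regulators and 6 genes of transport and turnover. RNA sequencing covered 8 mouse libraries, 1 in each of 8 groups. The neuron and glia libraries came from brain of strain C57, and the 3 brain regions, cerebellum, cortex and hippocampus, from the same strain. The library labelled R1 ESC is an embryonic stem cell line from the inner cell mass, strain 129X1 x 129S1, and the ICR MEF and OG2 MEF libraries are embryonic fibroblasts of day 13.5 embryos of strains ICR and OG2. No treatment or allele is named for any group, and the age and sex of the animals, the number pooled and the way neurons and glia were obtained were not stated in the labels.

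Cells build cholesterol from acetyl-CoA. The mevalonate arm makes farnesyl diphosphate, squalene synthase commits it to sterols, and the sterol arm closes the rings of squalene and trims lanosterol to cholesterol. SREBP transcription factors, held in the endoplasmic reticulum by Scap and Insig proteins while sterol is abundant, switch these genes on, often together with NF-Y, a factor that binds CCAAT boxes. Brain cholesterol is made locally because plasma lipoproteins hardly cross the blood-brain barrier. Glia load it onto apolipoprotein E through ABC pumps, LRP1 and related receptors take it up, and neurons dispose of it with the 24-hydroxylase Cyp46a1.

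Promoters are shown because most of the enzymes share 1 short motif although their levels differed between libraries. Of 25 members with a promoter in the RefSeq table (GRCm38.p6), 20 held CCAAT or its reverse complement ATTGG in the 250 bases before the start, and among the synthesis enzymes 14 of 15 did. Of all 27025 genes with a promoter there, 37.5% held it. The strict sterol regulatory element TCACNCCAC, on either strand, was in 1 of the 25, Hmgcs1, and in 1.22% of all genes. No promoter was given for Fdps, Fdft1, Sqle and Abcg1, so neither motif could be searched for in them. In Hmgcs1 no sterol element overlapped a CCAAT box. The stretch before Hmgcs1 follows whole, with its 1 sterol element and 3 CCAAT boxes in capitals, and after it come windows around the CCAAT box nearest the start of enzymes high in neuron (Mvd, Pmvk), enzymes low there (Lss, Sc5d), Insig2, Srebf2 and Cyp46a1, with the box in capitals, each cut off at the start where it is near.
Hmgcs1, chr13:119690101-119690350, plus strand: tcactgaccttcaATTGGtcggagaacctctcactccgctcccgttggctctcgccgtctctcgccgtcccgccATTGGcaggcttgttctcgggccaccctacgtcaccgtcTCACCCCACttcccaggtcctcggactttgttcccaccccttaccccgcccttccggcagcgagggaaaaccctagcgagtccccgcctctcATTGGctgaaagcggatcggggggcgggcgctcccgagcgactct
Mvd, chr8:122443423-122443477, minus strand: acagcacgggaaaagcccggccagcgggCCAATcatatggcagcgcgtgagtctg
Pmvk, chr3:89454377-89454436, plus strand: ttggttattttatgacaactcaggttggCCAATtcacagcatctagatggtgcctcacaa
Lss, chr10:76531515-76531574, plus strand: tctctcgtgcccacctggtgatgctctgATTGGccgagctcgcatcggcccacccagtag
Sc5d, chr9:42264301-42264352, minus strand: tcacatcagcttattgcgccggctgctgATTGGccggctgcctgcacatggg
Insig2, chr1:121332590-121332646, minus strand: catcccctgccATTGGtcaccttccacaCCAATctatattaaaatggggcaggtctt
Srebf2, chr15:82147106-82147165, plus strand: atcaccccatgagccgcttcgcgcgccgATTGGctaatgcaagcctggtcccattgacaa
Cyp46a1, chr12:108334135-108334194, plus strand: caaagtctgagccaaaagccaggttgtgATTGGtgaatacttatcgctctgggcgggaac
The box thus stands before enzymes on both sides of the neuron and glia comparison on TPM, though Lss and Sc5d were not called lower with the effect of transcript length removed, and also before Cyp46a1, which is not a synthesis gene. A match is a run of letters and not a measured binding site.

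Levels are TPM as deposited, transcript abundances scaled by transcript length and to a fixed sum in each library. The depth was 2147004 to 5864673 expected counts a library. A gene was called higher or lower by 2 conditions: 10 TPM or more in all libraries on the upper side, and a gap of 2-fold or more, after 1 TPM was added, between the closest libraries of the 2 sides. Each fold is the ratio of TPM, with nothing added, between these closest libraries, and its 95% interval (exact, Clopper-Pearson) covers counting error only. As every group is 1 library, differences could not be set against a spread between replicates and none was tested. The neuron library held neuronal markers (4 genes, 3515 TPM in sum) and few astrocyte or oligodendrocyte ones (62.1 and 34.2 TPM). Of the neuronal sum 2852 TPM was Stmn2, while Snap25, Syt1 and Rbfox3 stood at 446, 131 and 86.0 TPM, each lower than in every brain region. Glia held astrocyte markers (6 genes, 2645 TPM) and microglia markers (5 genes, 294 TPM). Its 6 oligodendrocyte markers summed to 155 TPM, of which Cnp made 147 TPM, while Mbp was at 4.02 TPM and Mog and Mobp at 0. The regions held oligodendrocyte markers at 4468 to 6006 TPM, and fibroblast markers summed to 7244 TPM in ICR MEF and 6415 TPM in OG2 MEF. In the library labelled R1 ESC the 5 pluripotency markers summed to 35.3 TPM and the fibroblast markers to 132.5 TPM. The 5 were Pou5f1 at 20.2 TPM, Nanog at 10.3, Sox2 at 4.8, Esrrb at 0, and Zfp42, which was at 0 in all 8 libraries. The pluripotency sum was higher in glia (227.5 TPM, of which Sox2 made 224.8 TPM) and in the brain regions (38.0 to 45.2 TPM). Pou5f1 and Nanog were at 0.73 and 1.97 TPM or less in the other libraries. Long transcripts were scarcer in 2 of the libraries: an average count came from a transcript with an effective length of 2488 bases in neuron, 1739 bases for the library labelled R1 ESC and 3021 to 3740 bases in the rest. Counts of calls with the trend of the ratio on length removed are therefore given beside those on TPM where they differ. Shares of all genes called are on TPM alone and were not counted with the length trend removed, with CPM or with TMM factors.

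The cholesterol genes were broadly transcribed: 17 of the 29 reached 10 TPM in all 8 libraries, and 6 more in 7 of them. The 18 synthesis genes summed to 2971 TPM in neuron, 1529 in glia, 834, 1105 and 997 in cerebellum, cortex and hippocampus, 783 in the library labelled R1 ESC, 1913 in ICR MEF and 1686 in OG2 MEF. Neuron thus had the highest sum, and it did with CPM (counts scaled to library size, length left out) and with TMM factors of the TPM too. The last place of the library labelled R1 ESC depended on the scaling: with CPM its sum of 1541 lay above the 788 to 1063 of the brain regions, and with TMM factors its sum of 2841 was second to neuron. By gene, 10 of the 18 were highest in neuron, 4 in ICR MEF, 2 in glia and 2 in the library labelled R1 ESC, while 14 were lowest in the last. With CPM neuron was highest for 10 and the library labelled R1 ESC lowest for 8. With TMM factors neuron was highest for 9, while cerebellum was lowest for 8 and the library labelled R1 ESC for 6. Regulators were highest in glia in sum (448 TPM), with CPM and TMM factors too. Transport genes, with Apoe as most of the sum, came to 3207 TPM in glia and 3277 to 4027 TPM in the brain regions; with CPM glia was the higher, at 2866 against 2001 to 2127, and with TMM factors its 2285 lay above cerebellum at 2071. Ranked over the 29 genes, which are no replicates of each other, TPM had a Spearman correlation of 0.94 between cortex and hippocampus and between the MEF libraries, and 0.24 between neuron and glia.

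**Figure D1:**
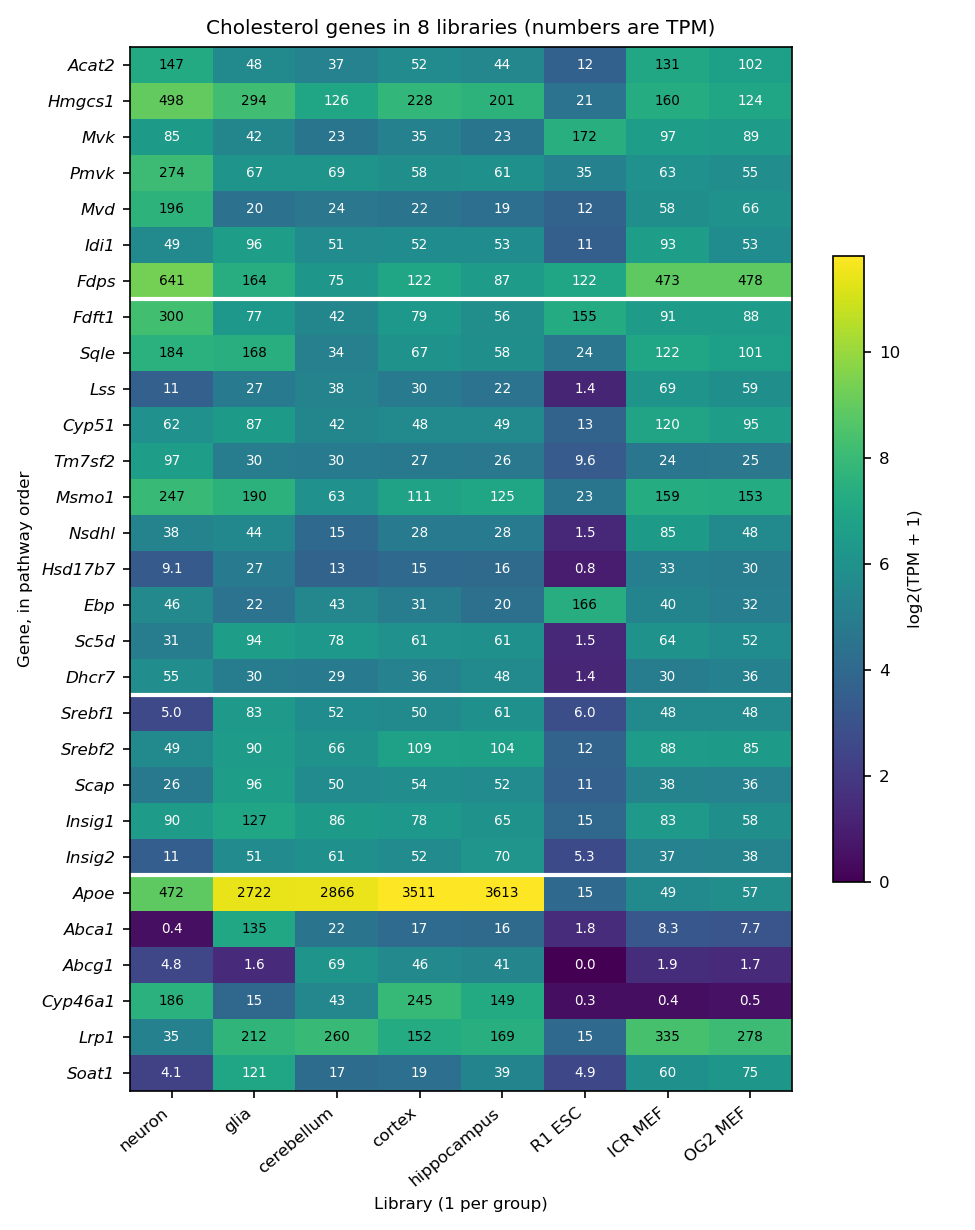
TPM of the 29 genes (rows, in pathway order, white lines between the 4 groups of genes) in the 8 libraries (columns, 1 per group); colour is log2(TPM + 1) and the printed numbers are TPM. Most of the mevalonate arm is brightest in neuron, where Fdps is at 641 TPM, Apoe is brightest in glia and the brain regions, and the library labelled R1 ESC is dark for most genes apart from Mvk, Fdft1, Fdps and Ebp.

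Neuron set against glia showed more synthesis genes higher than lower, and more regulators and transport genes lower than higher. Of the 18 synthesis genes 8 were higher and 3 lower, of the 5 regulators 3 were lower, and of the 6 transport and turnover genes 1 was higher and 4 lower. Over all 11185 genes that could be called, 18.7% were higher and 49.1% lower. The synthesis genes had a median difference in log2(TPM + 1) of 0.82, against -0.95 for all genes. With the length trend removed 11 synthesis genes were higher and none lower, and their median was 1.37 against -0.03.

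In the mevalonate arm 5 of 7 genes were higher and none lower. Mvd, the mevalonate diphosphate decarboxylase, stood at 196 TPM in neuron and 20.3 TPM in glia, 9.66-fold (7.78 to 12.1) higher. Pmvk, the kinase before it (chromosome 3, 89454541 to 89469013, GRCm38), had 274 TPM in neuron and 67.5 TPM in glia, 4.06-fold (3.46 to 4.77) higher. Fdps, farnesyl diphosphate synthase, reached 641 TPM in neuron and 164.5 TPM in glia, 3.90-fold (3.53 to 4.31) higher. These 3 steps follow each other closely in the pathway, and the isomerase between Mvd and Fdps did not go with them. Idi1, that isomerase, had 49.02 TPM in neuron and 95.7 TPM in glia, and was not called. Acat2, the thiolase that joins acetyl-CoA units, stood at 147 TPM in neuron and 48.2 TPM in glia. Mevalonate kinase, Mvk, had 85.3 TPM in neuron and 41.6 TPM in glia and lay close to the 2-fold line at 2.05-fold (1.70 to 2.49). With 5 TPM added in place of 1, Mvk was not called. Hmgcs1, HMG-CoA synthase, was abundant in both at 498 TPM in neuron and 294 TPM in glia, 1.70-fold apart and so not called, though it was with CPM, TMM factors or the length trend removed.

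In the sterol arm 3 of 11 genes were higher in neuron and 3 lower. Squalene synthase, Fdft1 (chromosome 14, 63145150 to 63179578), stood at 300.02 TPM in neuron and 77.2 TPM in glia, 3.89-fold (3.55 to 4.27) higher. Tm7sf2, a sterol 14-reductase, had 96.8 TPM in neuron and 30.15 TPM in glia, and the isomerase gene Ebp 46.1 TPM in neuron and 21.9 TPM in glia. Ebp was not called with 5 TPM added in place of 1. Lower were Sc5d, the sterol 5-desaturase, at 30.6 TPM in neuron and 93.7 TPM in glia, Hsd17b7, a 3-ketosteroid reductase, at 9.09 TPM in neuron and 27.3 TPM in glia, and lanosterol synthase, Lss, at 11.2 TPM in neuron and 27.3 TPM in glia. None of these 3 was called with CPM, TMM factors or the length trend removed. Lss had 235 counts in neuron and 308 in glia, and its effective length was 6785 bases in neuron and 3971 bases in glia, so its TPM differed more than its counts. Its difference was 0.16 with CPM and 0.77 with the length trend removed. Sqle (squalene epoxidase), Cyp51 (lanosterol demethylase), Msmo1, Nsdhl and Dhcr7 lay within 2-fold, Sqle at 184 TPM in neuron and 168 TPM in glia. Sqle and Dhcr7 were called higher once the length trend was removed, with differences of 1.21 and 1.88.

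**Figure D2:**
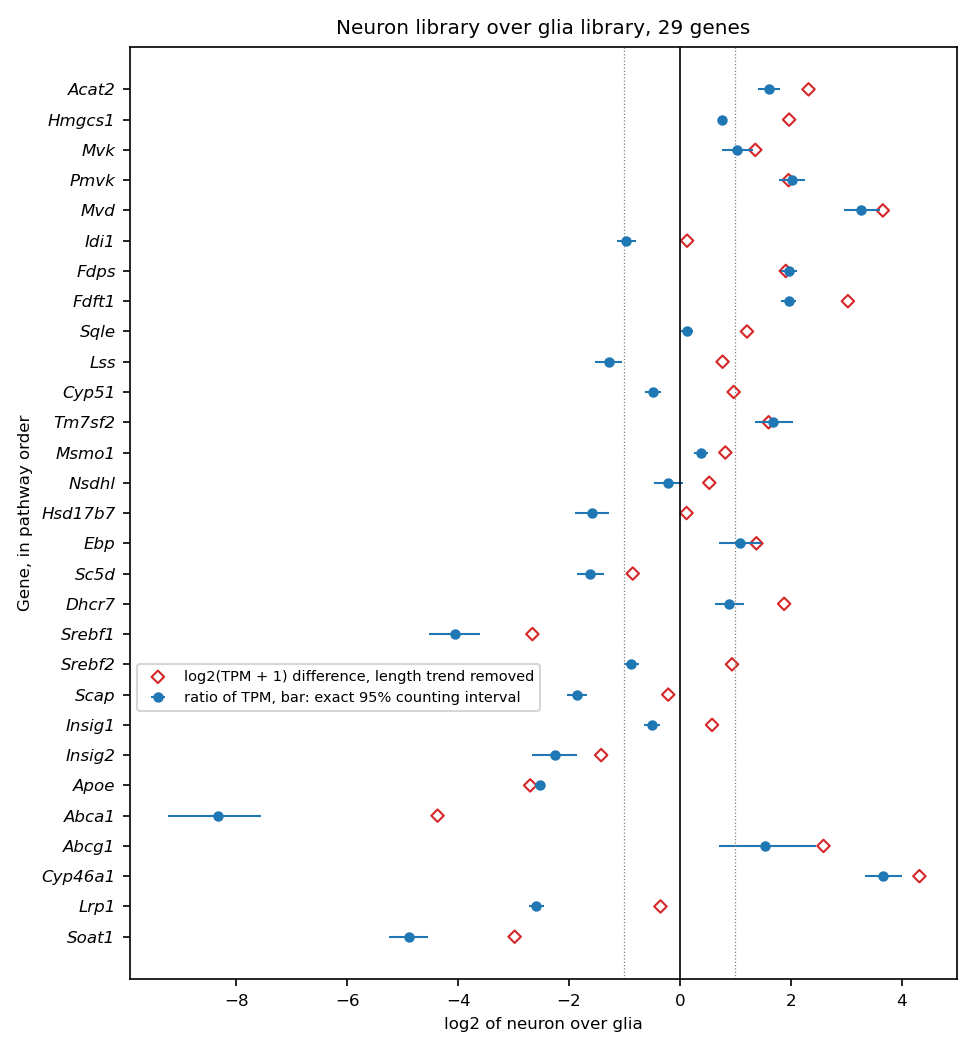
Log2 of neuron over glia for the 29 genes in pathway order. Blue points are ratios of TPM with exact 95% counting intervals, red diamonds the difference in log2(TPM + 1) with the length trend removed, and dotted lines mark 2-fold. By TPM the mevalonate arm lies to the right apart from Idi1, and Srebf1, Insig2, Apoe, Abca1 and Soat1 lie to the left by both measures.

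Of the 5 regulators 3 were lower and none higher, a share near the 49.1% over all genes; with the length trend removed 2 were lower and their median was -0.21 against -0.03. Srebf1, which encodes SREBP-1, had 5.03 TPM in neuron and 83.3 TPM in glia, 16.6-fold (12.2 to 23.1) lower in neuron. Srebf2, which encodes SREBP-2, the form most tied to cholesterol synthesis, stood at 49.3 TPM in neuron and 90.4 TPM in glia and was not called. The distance between the same libraries was thus wider for Srebf1 than for Srebf2, at 1.84-fold. The Insig pair showed a similar split. Insig2 was at 10.7 TPM in neuron and 51.05 TPM in glia, 4.78-fold (3.64 to 6.38) lower, while Insig1 was at 89.7 TPM in neuron and 127 TPM in glia and was not called. Scap, the escort of SREBP, had 26.4 TPM in neuron and 95.5 TPM in glia and was called lower, but was not with TMM factors or without the length trend. Srebf1 and Insig2 were lower under all 6 alternative settings tried.

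Among the transport and turnover genes the contrast was widest. Abca1, the pump that hands cholesterol to apolipoproteins (chromosome 4, 53030787 to 53159895), had 0.42 TPM in neuron (13 counts) and 135 TPM in glia (3850 counts), 321-fold (187 to 603) lower. Its log2 difference of -6.58 became -4.37 with the length trend removed, still called lower. Soat1, which esterifies cholesterol for storage, had 4.10 TPM in neuron and 121 TPM in glia, 29.6-fold (23.2 to 38.2) lower. Its effective length was 5673 bases in neuron and 2486 bases in glia, and its log2 difference of -4.58 became -2.95 with CPM and -2.98 with the length trend removed, still called lower. Apoe itself (chromosome 7, 19696109 to 19699188) was at 472 TPM in neuron and 2722 TPM in glia, 5.77-fold (5.43 to 6.13) lower. The receptor gene Lrp1 had 35.2 TPM in neuron and 212 TPM in glia, 6.03-fold lower. Its effective length was 4368 bases in neuron and 9290 bases in glia, so its counts (475 and 5589) differed more than its TPM. It was also called lower with CPM (difference -2.99) and with TMM factors, but not with the length trend removed. Cyp46a1 ran against the rest, at 186 TPM in neuron and 14.7 TPM in glia, 12.7-fold (10.1 to 16.2) higher. Abcg1, a second efflux pump, was low in both, at 4.79 TPM in neuron and 1.65 TPM in glia, under the 10 TPM needed for a call. Astrocyte markers summed to 62.1 TPM in neuron and 2645 TPM in glia, microglia markers to 19.8 TPM in neuron and 294 TPM in glia, and fibroblast markers to 15.1 TPM in neuron and 195 TPM in glia. The part of these cell types in the Apoe and Abca1 differences was not tested, and fewer cells of a type and less RNA per cell cannot be told apart in bulk samples. Of 30 further genes of sterol uptake, storage and fatty acid synthesis, 1 was higher (Vldlr, a lipoprotein receptor gene, 24.1 TPM in neuron and 9.34 TPM in glia) and 12 lower, among them Lipa (lysosomal acid lipase, log2 ratio -4.09), Ch25h (cholesterol 25-hydroxylase, -4.09, 2 counts in neuron) and Scd1 (a fatty acid desaturase, -3.51). Of these 30 genes 23 could be called, so that 12 lower is close to the share over all genes, and with the length trend removed 9 were higher and 6 lower.

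**Figure D3:**
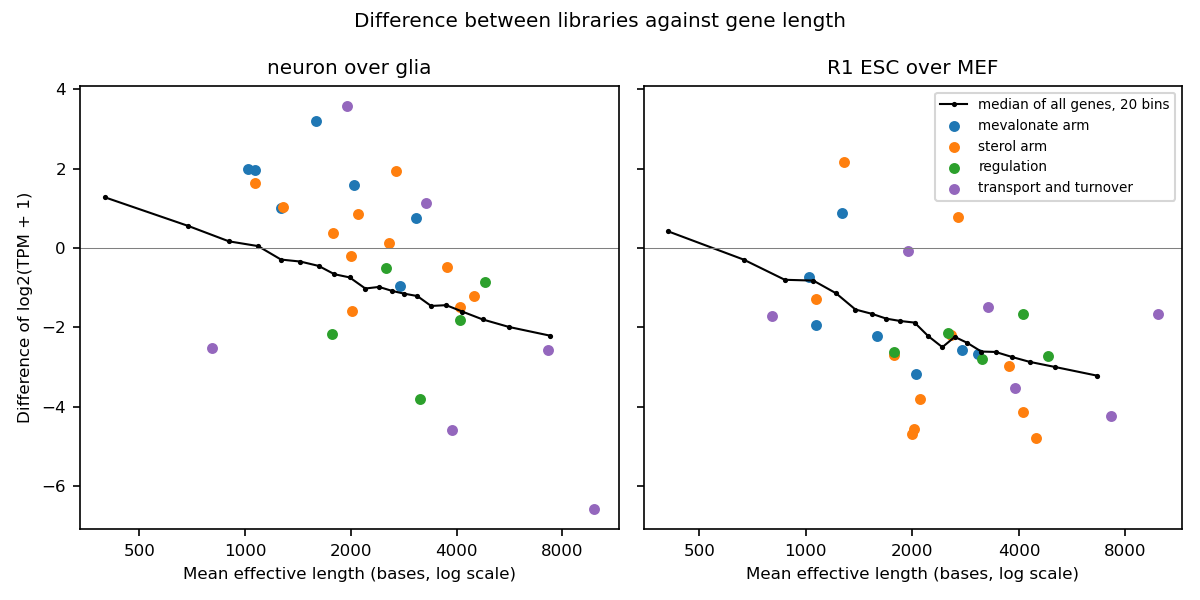
Difference in log2(TPM + 1) against mean effective length (log axis) for neuron over glia and for the library labelled R1 ESC over the MEF libraries; coloured points are the 29 genes and the black line joins the medians of all genes in 20 bins of length. The line runs from 1.28 for the shortest bin to -2.21 for the longest in neuron over glia, and 6 of the 7 mevalonate arm genes lie above 0 there.

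Neuron set against the 3 brain regions gave a like picture with a mixed tissue as the other side; glia and the regions are separate libraries, but neuron enters both comparisons. Of the synthesis genes 9 were higher and none lower, where 7.16% of the 10178 genes that could be called were higher and 42.1% lower. Their median difference was 1.41, against -0.99 for all genes. Mvd stood at 196 TPM in neuron, against 24.4, 22.2 and 19.1 TPM in cerebellum, cortex and hippocampus, 8.04-fold (6.49 to 10.1) higher. Fdps stood at 641 TPM in neuron, against 75.5, 122 and 87.4 TPM in the regions, 5.24-fold (4.64 to 5.93) higher. Hmgcs1, at 498 TPM in neuron against 126, 228 and 201 TPM in the regions, was called here, at 2.18-fold (2.06 to 2.31). Pmvk stood at 274 TPM in neuron against 69.2, 58.5 and 60.9 TPM in cerebellum, cortex and hippocampus, Acat2 at 147 TPM against 37.3, 51.7 and 43.8 TPM, and Mvk at 85.3 TPM against 22.8, 35.4 and 23.1 TPM. In the sterol arm Fdft1 stood at 300.02 TPM in neuron against 42.3, 79.1 and 55.97 TPM, Sqle at 184 TPM against 34.4, 67.3 and 58.3 TPM, and Tm7sf2 at 96.8 TPM against 29.7, 26.6 and 25.8 TPM. These 6 were between 2.41-fold and 3.96-fold higher than the closest region, and above every region as the rule for a call requires. Msmo1, at 247 TPM in neuron against 63.0, 111 and 125 TPM in the regions, lay just under the line at 1.97-fold. With the length trend removed 14 of the 18 were higher and none lower, and their median was 1.97 against 0.05 for all genes.

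Of the other members 7 were called lower in neuron: Srebf1, Insig2, Apoe, Abca1, Abcg1, Lrp1 and Soat1. Abcg1 had 4.79 TPM in neuron, against 68.8, 45.8 and 41.1 TPM in cerebellum, cortex and hippocampus, 8.58-fold (6.31 to 11.9) lower. Abca1 had 0.42 TPM in neuron against 22.2, 16.7 and 15.8 TPM in the regions, 37.6-fold (21.6 to 71.6) lower. Srebf1 had 5.03 TPM in neuron against 52.2, 50.03 and 60.7 TPM, 9.95-fold (7.23 to 14.0) lower. The regions lay close together in Abca1 and Srebf1, so the distance to neuron exceeded that among them. With the length trend removed, the log2 difference of Abca1 went from -3.74 to -1.42 and that of Abcg1 from -3.16 to -1.59. Srebf1 went from -3.19 to -1.90, and each was still called lower. Apoe stood at 472 TPM in neuron against 2866, 3511 and 3613 TPM, 6.07-fold (5.71 to 6.46) lower, and Insig2 at 10.7 TPM against 60.8, 51.6 and 69.6 TPM, 4.84-fold (3.65 to 6.5) lower. Lrp1 had 35.2 TPM in neuron against 260, 152 and 169 TPM, and Soat1 4.10 TPM against 17.0, 19.04 and 38.9 TPM. Neither of the last 2 was called with the length trend removed, nor Soat1 with TMM factors. Cyp46a1, at 186 TPM in neuron, lay between hippocampus at 149 TPM and cortex at 245 TPM. Oligodendrocyte markers summed to 34.2 TPM in neuron against 4468 to 6006 TPM in the regions, and the part of myelin-forming cells in these differences was not tested. Of the 30 further genes none was higher and 12 were lower, led by Scd1 (log2 ratio -2.97), where 42.1% of all genes were. Without the length trend 6 were higher and 1 lower, and Scd1 was not called.

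In glia set against the brain regions 4 of the 5 members called were transport and turnover genes. Of 29 members 3 were higher and 2 lower, where 15.4% and 17.1% of 11347 genes were. Abca1 stood at 135 TPM in glia, against 22.2, 16.7 and 15.8 TPM in cerebellum, cortex and hippocampus, 6.08-fold (5.55 to 6.67) higher. Abcg1 did the opposite, with 1.65 TPM in glia (16 counts) against 68.8, 45.8 and 41.1 TPM in the regions, 24.9-fold (15.0 to 44.4) lower. The 2 pumps thus stood in opposite order in the same pair of groups, and both calls held under the 6 alternative settings. Soat1 was higher at 121 TPM in glia against 17.0, 19.04 and 38.9 TPM in the regions, 3.12-fold (2.64 to 3.70). Squalene epoxidase, Sqle, was the 1 synthesis gene called, at 168 TPM in glia against 34.4, 67.3 and 58.3 TPM, 2.50-fold (2.23 to 2.81) higher. Cyp46a1 was lower at 14.7 TPM in glia against 43.2, 245 and 149 TPM in the regions, 2.95-fold (2.26 to 3.87) under cerebellum, the lowest region. Apoe was not called, at 2722 TPM in glia against 2866, 3511 and 3613 TPM in the regions. Of the 18 synthesis genes 14 had a positive difference, and their median was 0.56 against -0.02 for all genes. Idi1, Cyp51 and Scap were also higher with the length trend removed, each with a difference of 1.16, which made 6 members. Of the 30 further genes 3 were higher and 4 lower, with or without the trend; Ch25h, Lipa and Npc2, a lysosomal cholesterol carrier, were the higher ones. Neuronal markers summed to 289 TPM in glia, nearly all of it Stmn2, against 4163 to 4600 TPM in the regions.

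**Figure D4:**
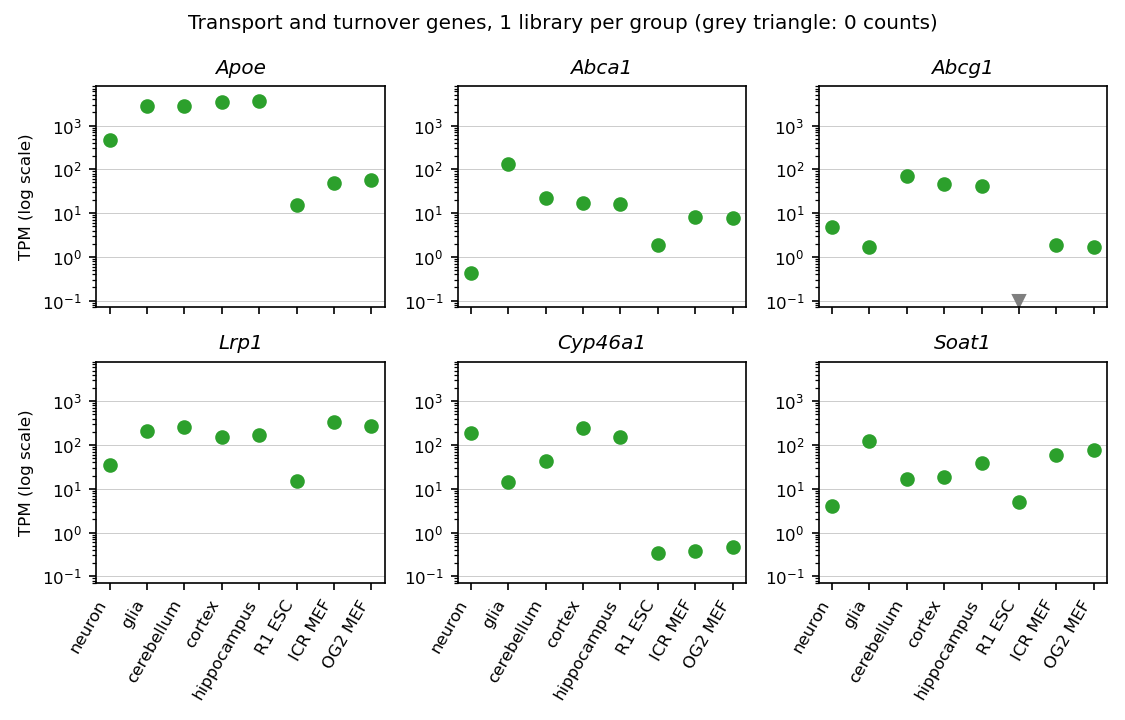
TPM (log axis) of 6 transport and turnover genes in each library, 1 point per library; the grey triangle marks 0 counts. Abca1 is highest in glia at 135 TPM while Abcg1 is highest in the 3 brain regions (41.1 to 68.8 TPM), and Cyp46a1 is at 0.47 TPM or less outside the brain libraries.

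Cerebellum set against cortex and hippocampus differed in 1 member only at the 2-fold rule. Cyp46a1 stood at 43.2 TPM in cerebellum, against 245 TPM in cortex and 149 TPM in hippocampus, 3.45-fold (2.91 to 4.09) lower. Of all 11199 genes that could be called, 7.39% were lower and 7.43% higher. Synthesis genes were mostly a little lower: 12 of 18 had a negative difference, with a median of -0.31 against 0.14 for all genes. Nsdhl, a C4 sterol dehydrogenase, had 15.4 TPM in cerebellum against 27.7 and 27.6 TPM in cortex and hippocampus, 1.79-fold (1.30 to 2.47) apart, and Msmo1, which acts at the same carbon, had 63.0 TPM in cerebellum against 111 and 125 TPM, 1.77-fold (1.52 to 2.06) apart. Hmgcs1, Sqle and Srebf2 were below both other regions by 1.59-fold to 1.69-fold. None of these reached the 2-fold line. Neither Abca1 (22.2 TPM in cerebellum against 16.7 and 15.8 TPM) nor Abcg1 reached 2-fold. Set against hippocampus alone, Ebp was higher (43.2 TPM in cerebellum, 19.9 TPM in hippocampus) and Soat1 lower (17.0 TPM in cerebellum, 38.9 TPM in hippocampus). Cortex stood at 31.2 TPM for Ebp and 19.04 TPM for Soat1. Soat1 had 217 of 5572116 counts in cerebellum and 169 of 3686772 in hippocampus. Its effective length was 5334 bases in cerebellum and 2730 bases in hippocampus, so its TPM differed more than its share of counts. Of the 30 further genes 4 were higher, with Abca7, another ABC transporter, at 33.8 TPM in cerebellum against 6.63 and 7.87 TPM in cortex and hippocampus, and none was lower. The count was 2 higher and 1 lower with the length trend removed.

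In the brain regions set against the MEF libraries the members called were 3 transport and turnover genes, higher, and 3 mevalonate enzymes, lower. These were 3 of 29 each way, where 32.0% of 10730 genes were higher and 12.8% lower. The share of members lower was thus near that over all genes, and the share higher was under it. Apoe had 2866, 3511 and 3613 TPM in cerebellum, cortex and hippocampus, against 48.6 and 56.7 TPM in ICR MEF and OG2 MEF, 50.5-fold (43.1 to 59.6) higher. Cyp46a1, at 43.2, 245 and 149 TPM in the regions against 0.37 and 0.47 TPM in the MEF libraries (2 and 3 counts), was 91.9-fold (31.0 to 449) higher. Abcg1, at 68.8, 45.8 and 41.1 TPM in the regions against 1.89 and 1.70 TPM in the MEF libraries, was 21.8-fold (13.5 to 37.4) higher. These were the 3 members called higher, and they were called under each of the 6 alternative settings. Astrocyte markers summed to 1508 to 1860 TPM in the regions, against 179.6 and 183 TPM in the MEF libraries, and neuronal markers to 4163 to 4600 TPM, against 51.9 and 51.4 TPM; their part in these differences was not tested. Fdps stood at 75.5, 122 and 87.4 TPM in the regions against 473 and 478 TPM in the MEF libraries, 3.86-fold (3.41 to 4.39) lower. Mvk stood at 22.8, 35.4 and 23.1 TPM in the regions against 97.3 and 88.5 TPM, 2.50-fold (2.01 to 3.14) lower. Mvd stood at 24.4, 22.2 and 19.1 TPM in the regions against 57.8 and 65.6 TPM, 2.37-fold (1.86 to 3.04) lower. In all 3 enzymes the MEF libraries lay close together, and above every region as the rule for a call requires. The synthesis genes had a median difference of -0.87, against 0.61 for all genes. With the length trend removed 9 of the 18 were lower, and their median was -1.53 against -0.06 for all genes. With CPM 8 were lower, and the median was -1.13 against 0.16. None of the 5 regulators was called, and Srebf1 stood at 52.2, 50.03 and 60.7 TPM in the regions against 48.5 and 48.2 TPM in the MEF libraries. Without OG2 MEF, Acat2, Cyp51 and Nsdhl were also lower, 6 in all. Of the 30 further genes 5 were higher, led by Clu, a lipid-carrying glycoprotein (log2 ratio 5.79), and Abcg4, an efflux pump (5.08), and 4 lower, led by Npc2 (-2.47); with the length trend removed 3 were higher and 10 lower.

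The library labelled R1 ESC stood below both MEF libraries in most members, as it did in most genes. Of 29 members 22 were lower and 1 higher, where 66.6% and 9.53% of 8461 genes were. The median difference of the synthesis genes was -2.62, beside -2.01 for all genes, and -0.52 beside 0.05 with the length trend removed. Ebp was the member higher, at 166 TPM against 39.9 and 32.2 TPM in ICR MEF and OG2 MEF, 4.16-fold (3.42 to 5.08), and it was under all 6 alternative settings. The library labelled R1 ESC had an effective length of 904 bases for it, against 1216 and 1500 bases in the MEF libraries. Fdft1 had 155 TPM, against 91.1 and 88.3 TPM in the MEF libraries, and Mvk 172 TPM, against 97.3 and 88.5 TPM, with an effective length of 452 bases against 1327 and 1315 bases. Neither was called on TPM. At the other end, 5 sterol arm enzymes were under 2 TPM there. Lss had 1.35 TPM (24 counts), against 69.4 and 58.6 TPM in the MEF libraries, 43.4-fold (28.9 to 68.3) lower, and Sc5d 1.48 TPM (9 counts), against 63.9 and 52.5 TPM, 35.5-fold (18.5 to 78.2) lower. Effective lengths of Lss were unlike: 6154 bases there, against 3032 and 3028 bases for ICR MEF and OG2 MEF. Its TPM thus differed more than its share of counts. The log2 difference of Lss went from -4.78 on TPM to -3.24 with CPM and -1.91 with the length trend removed, still called lower. Hsd17b7 had 0.85 TPM, against 32.8 and 30.1 TPM, Nsdhl 1.54 TPM, against 85.2 and 48.5 TPM, and Dhcr7, the last reductase of the pathway, 1.44 TPM, against 30.2 and 36.0 TPM, each on 9 to 11 counts. All 5 thus lay far below either MEF library, though on few reads. With the length trend removed 8 members stayed lower: Acat2, Fdps, these 5 sterol enzymes and Insig2. Of these, Fdps was not called with CPM or TMM factors, and Insig2 was not with TMM factors. Of the other synthesis genes called lower, Fdps had 122 TPM, against 473 and 478 TPM in ICR MEF and OG2 MEF, Hmgcs1 21.3 TPM, against 160 and 124 TPM, and Acat2 11.9 TPM, against 131 and 102 TPM. Mvd had 12.4 TPM, against 57.8 and 65.6 TPM, and Idi1 11.1 TPM, against 93.3 and 52.9 TPM. Sqle, Cyp51, Msmo1 and Tm7sf2 were at 23.7, 12.7, 23.3 and 9.55 TPM in the library labelled R1 ESC, against at least 101, 95.03, 153 and 24.3 TPM in the MEF libraries. These 9 genes were between 2.55-fold and 8.60-fold lower, a smaller distance than that of the 5 scarce sterol enzymes.

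All 5 regulators were lower in the library labelled R1 ESC, where 66.6% of all genes that could be called were. The folds ran from 3.26-fold for Scap to 7.96-fold for Srebf1. Srebf1 had 6.05 TPM, against 48.5 and 48.2 TPM in ICR MEF and OG2 MEF, Srebf2 12.5 TPM, against 88.3 and 85.4 TPM, and Scap 11.2 TPM, against 38.5 and 36.4 TPM. Insig1 had 15.1 TPM, against 83.4 and 57.8 TPM, and Insig2 5.28 TPM (9 counts), against 37.04 and 38.5 TPM. The effective length of Insig2 was 591 bases there, against 1612 and 1685 bases in the MEF libraries. With the length trend removed Insig2 was the 1 regulator lower and Scap was higher. Of the transport genes Lrp1 had 15.4 TPM, against 335 and 278 TPM, 18.1-fold lower, Soat1 4.87 TPM, against 60.3 and 75.4 TPM, 12.4-fold lower, and Apoe 15.3 TPM, against 48.6 and 56.7 TPM, 3.17-fold (2.11 to 4.91) lower. None of these 3 was called with the length trend removed. Abca1, Abcg1 and Cyp46a1 were under 10 TPM in all 3 libraries, Abcg1 with 0 counts in the library labelled R1 ESC. The 30 further genes, of which 22 could be called, included 20 lower ones, led by Lipa (-4.41) and Scd1 (-4.07), and no higher one. Over all genes that could be called 66.6% were lower and 9.53% higher. For the 30 further genes the count was 2 higher and 6 lower with the length trend removed.

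No member was called between the MEF libraries of the 2 strains, ICR MEF over OG2 MEF, where 2.13% of 8699 genes were higher and 0.563% lower. Idi1, at 93.3 TPM in ICR MEF and 52.9 TPM in OG2 MEF, and Nsdhl, at 85.2 TPM in ICR MEF and 48.5 TPM in OG2 MEF, were the members farthest apart, both 1.76-fold. The other 27 lay between -0.32 and 0.52 on the log2(TPM + 1) scale. Among them Fdps had 473 TPM in ICR MEF and 478 TPM in OG2 MEF. Of the 30 further genes none was called either way.

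Some levels are less certain than their counting intervals show. Expected counts of 8 members (Acat2, Fdft1, Sqle, Lss, Tm7sf2, Msmo1, Scap and Soat1) were not whole in at least 1 library, which means that reads were divided with other genes. Exons of 6 members overlap those of another measured gene, as do 774 bases of Fdft1 with Ctsb on the opposite strand. Whether the libraries kept the strand is not stated in the labels. The effective length of 7 members (Mvk, Lss, Ebp, Insig2, Abcg1, Lrp1 and Soat1) differed over 1.5-fold between libraries, so that their TPM also reflects which transcripts the reads were assigned to.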

How the data were processed

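Total RNA from Trizol went into Illumina TruSeq RNA libraries, per the labels' protocols. Bowtie, RSEM and the build mm10 are named, without versions, per the submitters' processing notes. Expected counts per gene were deposited by the authors, as RSEM estimates them, per the file headers. TPM values, effective lengths and FPKM values stand in the same deposited tables, per the file headers; FPKM was not used. Of 29713 identifiers 29202 had a symbol (GENCODE M21, GRCm38), which also gave coordinates; promoters came from RefSeq (GRCm38.p6). Recomputing TPM from counts and effective lengths gave 99.9% of values of at least 10 TPM back within 1%; 88.9% of counts were whole. Counts were rounded for intervals.

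Calls were made over all genes and read for the members. The median of a list compares groups' means of log2(TPM + 1) with that over all genes with 10 TPM in every library of a side. The length trend was removed with 20 bins. Alternatives were 0.1 or 5 TPM added, a floor of 1 TPM, CPM, TMM factors of the TPM, the length trend removed, and each library left out where a side had several. Calling was tested on simulated data with counting error only. These held no length trend and no spread between replicates, so the effect of either on the calls could not be judged from them. The members and lists were chosen with earlier results of these data known; members are all named, and from the further genes at most 4 called ones per direction. Protein sequences were not used here. Python 3.11.15, pandas 2.3.3, scipy 1.17.1, R 4.3.3 and edgeR 4.0.16 (TMM factors alone) were used.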

Additional observations from a re-analysis of the deposited data

How the results depend on the processing

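Of the counts of members called, those for ICR MEF over OG2 MEF moved under no setting tried. For neuron over glia the members lower were 6 with TMM factors and 5 with the length trend removed, against 10, and all of these were among the 10. Members higher in neuron than in the brain regions were 15 with TMM factors and 15 with the length trend removed, against 9, which stayed among them. Members lower in the brain regions than in the MEF libraries were 9 with CPM, 10 with TMM factors and 11 with the length trend removed, against 3; leaving out 1 library gave 3 to 6. Members higher in glia than in the regions were 6 with the length trend removed, against 3. For the library labelled R1 ESC over the MEF libraries, 2, 4 and 4 members were higher and 14, 10 and 8 lower with CPM, TMM factors and the length trend removed, against 1 and 22. For cerebellum, leaving out 1 library gave 0 to 1 members higher and 1 to 2 lower, the change coming without cortex. Among members called on TPM, differences turned in sign for Lss (0.16 with CPM, 0.77 with the length trend removed) and Hsd17b7 (0.12 with the trend removed) in neuron over glia. In the library labelled R1 ESC over the MEF libraries members called on TPM did so with the length trend removed for Sqle (0.04), Srebf2 (0.31), Scap (1.21) and Insig1 (0.09), and with TMM factors of the TPM for Tm7sf2 (0.42), Scap (0.06) and Apoe (0.03). Members not called on TPM turned in sign too, such as Cyp51 (0.97) and Srebf2 (0.94) in neuron over glia and Abca1 (1.55) in the library labelled R1 ESC, all with the trend removed. TMM factors of the TPM and the removal of the trend bring libraries to a common level by construction; for CPM the cause of the changes was not tested. No paired analysis was possible because each group has 1 library. Depth limits values on few counts, such as Abcg1 in glia (16 counts), Abca1 in neuron (13) and Sc5d in the library labelled R1 ESC (9).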
